A study of Rattus norvegicus with 5 samples.

Results

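The sham heart profile covers all 678 rat miRNA probes of the array, chosen by their rat miRNA names, as read on the 1 sham array of a series of 5 arrays. Each probe was printed as 4 spots, so the profile rests on 2712 of the 12312 spots of the array. The RNA was total RNA from the hearts of 5 male SD rats, a laboratory strain, aged 6 to 8 weeks and weighing 200 to 300 g. The 5 hearts stand behind 1 array, and how their RNA was combined is not stated in the labels. The animals were anaesthetized with barbital sodium and went through the surgery of transverse aortic constriction (TAC), which narrows the aortic arch, without the constriction itself. The other 4 arrays, from TAC hearts, are not compared here. The label places the sham hearts 5 days after surgery, whereas the header of the raw data column carries day 15, and which is right was not settled.

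MicroRNAs (miRNAs) are RNAs of about the length of a short primer that guide Argonaute proteins to messenger RNAs and repress them. Each is cut from a hairpin precursor, and usually 1 strand (the guide) is kept while the other (the star strand) is degraded. Targets are recognized mainly through the seed, bases 2 to 8 of the mature strand, so miRNAs with the same seed form a family. In the heart, cardiomyocytes hold the muscle miRNAs miR-1, miR-133 and the miRNAs encoded within myosin genes, while vessels, fibroblasts and blood cells bring sets of their own.

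The mature sequences below belong to the muscle miRNAs and to the brightest non-muscle miRNAs, since the profile turns on them. They are from RefSeq (rat build GRCr8), are written 5′ to 3′, and show the seed in capitals.
miR-22: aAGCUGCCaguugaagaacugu
miR-208: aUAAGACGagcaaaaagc
miR-208b-3p: aUAAGACGaacaaaaggu
miR-499: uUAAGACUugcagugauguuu
miR-133a: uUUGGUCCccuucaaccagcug
miR-133b: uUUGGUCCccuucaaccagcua
miR-1: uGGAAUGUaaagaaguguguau
miR-206: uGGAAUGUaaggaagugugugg
miR-126: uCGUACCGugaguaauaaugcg
miR-143: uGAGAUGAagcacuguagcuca
miR-30c: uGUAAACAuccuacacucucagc
miR-23b: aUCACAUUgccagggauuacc
miR-23a: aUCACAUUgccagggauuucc
miR-29a: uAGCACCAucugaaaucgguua
miR-29c: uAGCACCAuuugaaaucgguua

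The signal of a probe was its mean background-subtracted intensity over its 4 spots, in the scanner's arbitrary units, and errors are SDs over those spots. The SD is technical: with 1 array there is no spread between hearts, no test, and a single array limits the precision. Brightness depends on how strongly a probe binds its target as well as on the amount of target, so ranks and shares below are of signal and not of molecules. In whole-heart RNA a low level of a cell type's miRNA can mean few such cells or little of that RNA per cell, and these cannot be told apart. A miRNA counted as detected when its mean was above 30.6 units, the median plus 3 scaled MADs (median absolute deviations) of the 1136 empty and negative-control spots. By that rule 236 of 678 miRNAs were above the floor (34.8%), and 388 had a mean at or below 0.

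A few miRNAs held most of the signal of the sham heart. The 10 brightest together held 51.2% of the summed signal, the brightest 20 held 68.7% and the brightest 50 held 87.4%, while all 236 detected miRNAs held 99.9%. There were 19 miRNAs above 10000 units and 83 above 1000 units, and the median detected miRNA read 523 units.

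**Figure D1:**
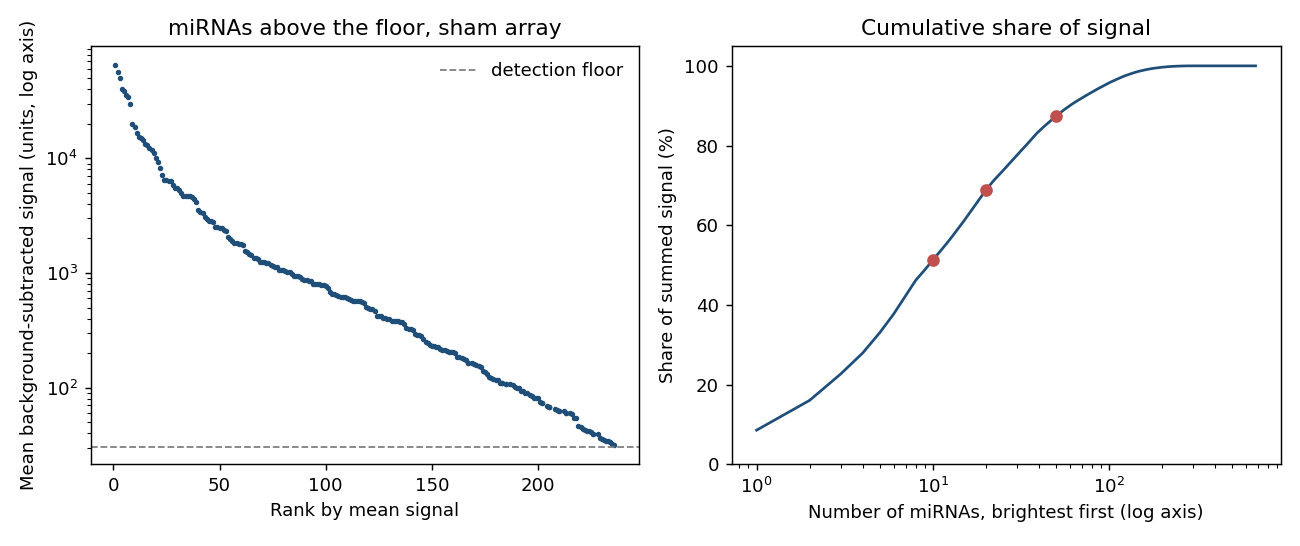
Left, mean background-subtracted signal of the 236 miRNAs above the detection floor (dashed line, 30.6 units) against rank, on a log axis. Right, cumulative share of the summed signal against the number of miRNAs taken from the brightest down, with dots at 10, 20 and 50 miRNAs, where the curve reaches 51.2%, 68.7% and 87.4%.

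MiR-22, a miRNA enriched in striated muscle and known to promote cardiomyocyte growth, was the brightest at 65142 ± 570 units, 8.56% of the summed signal. Its spots read 65424, 65423, 65432 and 64287 units. Since 3 of the 4 were at the ceiling of the scanner's scale, its level is a lower bound. MiR-208, which lies within the alpha myosin heavy chain gene Myh6, came next at 56953 ± 9137 units (spots 47020, 51401, 65418 and 63974), and 1 of its spots was at the ceiling as well. MiR-126, which lies within the endothelial gene Egfl7 and maintains vessel integrity, read 50346 ± 2983 units (spots 47524, 48535, 51128 and 54199). The spots of miR-208 overlapped those of miR-22 above and miR-126 below, so its place was not resolved, while all spots of miR-22 lay above all spots of miR-126.

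Ranks 4 to 7 formed a second group whose neighbours overlapped in their spots. MiR-133b, a muscle miRNA, read 40145 ± 945 units (spots 38870, 40443, 40140 and 41126). MiR-30c, whose family represses connective tissue growth factor, read 38840 ± 3438 units (spots 35431, 36421, 42465 and 41043). The probe for miR-23b, from a cluster active in endothelium and muscle, gave 35763 ± 1526 units, and that for the smooth muscle miRNA miR-143 gave 34358 ± 1443 units. All 4 spots of miR-133b lay below all 4 of miR-126, and likewise the spots of miR-133a (rank 8, 30006 ± 2111 units) lay below those of miR-143.

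MiR-30b-5p at rank 9 lay below all spots of miR-133a in turn. From there on, no miRNA of the first 30 was separated from the next in order by its spots. In all, 26 of the 29 neighbouring pairs among the first 30 overlapped. Ranks 9 to 20 ran from miR-30b-5p (19845 ± 1255 units) and miR-125b-5p (18760 ± 10298) through miR-24 (16650 ± 4041), miR-1 (15260 ± 930), the erythroid miR-451 (14987 ± 890) and miR-29a (14330 ± 6851) to miR-378, which lies in the mitochondrial regulator gene Ppargc1b (13394 ± 710). They went on with miR-29b (13108 ± 2655), miR-30e (12368 ± 4069), the cell cycle regulator miR-16 (11902 ± 346), miR-101a (11127 ± 1673) and miR-23a (9991 ± 4217). MiR-1, the miRNA best known from heart muscle, stood at rank 12 by signal. Its spots read 14751, 14387, 15395 and 16507 units, all below the lowest spot of miR-133a (27429 units).

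Ranks 21 to 30 were miR-30a (9330 ± 2550 units), the myosin-encoded miR-499 (8296 ± 5799), the miR-16 relative miR-195 (7200 ± 253), miR-130a (6504 ± 2216), let-7b (6415 ± 2139), the leukocyte miRNA miR-142-3p (6333 ± 664), miR-27b (6290 ± 1743), miR-26b (5889 ± 735), let-7i (5542 ± 897) and let-7d (5485 ± 512). The first 30 thus mixed muscle, vessel, red cell and leukocyte miRNAs with families found in most tissues, such as miR-30, miR-29, let-7 and miR-26.

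**Figure D2:**
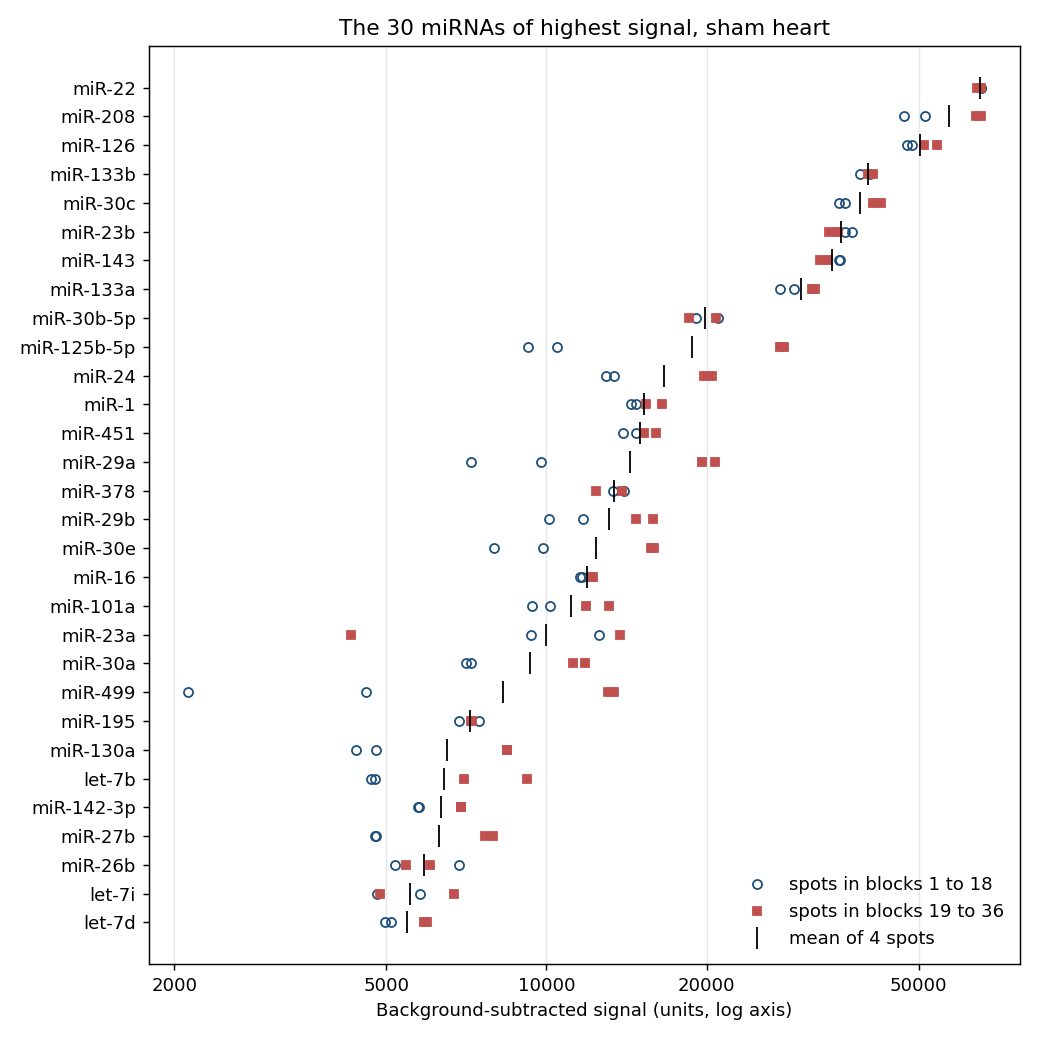
Background-subtracted signal (log axis) of the 4 spots of each of the 30 brightest miRNAs on the sham array, circles for blocks 1 to 18 of the slide, squares for blocks 19 to 36 and bars for the mean. The squares of miR-125b-5p, miR-29a and miR-499 sit well to the right of their circles, while those of miR-133b, miR-16 and miR-195 sit beside or among them.

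The position of a spot on the slide limited some of these values. Over the 223 detected miRNAs above the floor in both block sets, blocks 19 to 36 read above blocks 1 to 18 by a median of 0.20 on the log2 scale, and 186 of the 223 were higher there. The 2 block sets differed by over 2-fold for 17 miRNAs, 16 of them higher in blocks 19 to 36. MiR-499 averaged 3350 units in blocks 1 to 18 and 13240 in blocks 19 to 36 (3.95-fold), miR-125b-5p 9854 and 27666 units (2.81-fold), and miR-29a 8480 and 20180 units (2.38-fold). Let-7c, at 2052 and 598 units, was the 1 miRNA with the opposite difference. The share of the 10 brightest was 53.9% in blocks 1 to 18 alone and 49.7% in blocks 19 to 36, and 9 of the 10 were the same in each block set.

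The striated muscle miRNAs gave 20.3% of the summed signal, with 7 of 8 probes above the floor against 34.8% of all probes. MiR-22, the brightest probe, is not on that list. Adding it after its value was seen could only raise the share, which was then 28.8%. The striated muscle list and the marker lists below were chosen with earlier results of these data known. MiR-133b, miR-133a and miR-1 restrain muscle proliferation and growth genes, and miR-208 and miR-499 control the choice of myosin isoforms. MiR-208b-3p, from the beta myosin heavy chain gene Myh7, read 1988 ± 252 units (spots 1725, 1827, 2148 and 2251), where miR-208 from the alpha gene read 56953. The miRNA of skeletal muscle, miR-206, read 1560 ± 264 units (spots 1428, 1508, 1357 and 1945), against 15260 for miR-1, which has the same seed. The 1 muscle probe not above the floor was miR-208b-5p, the other arm of the miR-208b hairpin, at -44.8 units.

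Probes of near-identical miRNAs mostly did not read alike. MiR-206 differs from miR-1 at 3 of 22 bases, and miR-208b-3p from miR-208 at 3 of the 18 bases in RefSeq. Among matched sequences, 14 pairs with a detected member differed at 1 base, and in 12 of them the spots of the brighter probe lay wholly above those of the dimmer. The brighter probe was named from these same spots. The share over pairs of unrelated miRNAs was not computed, so the count does not set these pairs apart from others. In the miR-133 pair all spots of miR-133b (38870 to 41126 units) lay above those of miR-133a (27429 to 31974). MiR-23b read 35763 units and miR-23a 9991. MiR-101a read 11127 ± 1673 units and miR-101b 1056 ± 241. How far a probe also captures its neighbour's target was not tested.

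Vessel miRNAs were bright as well. All 4 probes of the endothelium list were above the floor, against 34.8% of all probes. They were miR-126 (50346 units), its star strand miR-126* (4451 ± 256), miR-222 (225 ± 35.8) and miR-221 (122 ± 31.5). MiR-221 and miR-222, which are made from a single transcript and curb vessel sprouting, were dim, and of the list's 7.24% of the summed signal miR-126 gave 6.61%. Of the smooth muscle pair, miR-143 read 34358 units and miR-145, which directs smooth muscle differentiation, 3379 ± 183 (spots 3153, 3354, 3409 and 3599). Their list gave 4.96% of the signal.

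Fibroblast and mesenchymal miRNAs were detected at middle signals, with 1.34% of the summed signal. Of their 8 probes 7 were above the floor, against 34.8% of all probes. The highest was miR-199a-5p at 2856 ± 121 units (spots 2758, 2765, 2889 and 3013). MiR-21, known from activated cardiac fibroblasts, read 2493 ± 68.2 units (spots 2468, 2408, 2554 and 2542) and stood at rank 49. Then came miR-199a-3p (1834 ± 674), miR-152 (1477 ± 337), miR-214 (779 ± 49.0), the Hox cluster miRNA miR-10a-5p (422 ± 341) and miR-31 (286 ± 137). The spots of miR-10a-5p ran from 48 to 769 units, so its level was uncertain, and miR-10b was not above the floor at 19 units.

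Blood cell miRNAs were present in the whole-heart RNA. MiR-451, which supports red cell maturation, read 14987 units, and miR-144, from the same transcript, 4726 ± 1058 units (spots 3627, 4016, 5558 and 5702). Together these 2 gave 2.59% of the signal. All 5 leukocyte probes were above the floor, against 34.8% of all probes. They were miR-142-3p (6333 units), the lymphocyte miRNA miR-150 (3085 ± 1309), the NF-kappa-B target miR-146a (1236 ± 25.5), miR-142-5p (940 ± 77.8) and the myeloid miR-223 (407 ± 37.7). They held 1.58% of the summed signal. How much of this came from blood left in the vessels was not tested.

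MiRNAs on the lists for tissues other than heart were mostly not above the floor. Since the lists were chosen with earlier results of these data known, the counts below describe the lists only. Over the lists for the cell types of the heart and its blood, 27 of 29 probes were detected (93.1%) and the median was 2493 units. Over the lists for other tissues 11 of 54 were detected (20.4%, against 34.8% of all probes), the median was -21.6 units, and the summed signal was 0.356% of the total. The liver miRNA miR-122 read -10.5 units. No epithelial miRNA was above the floor, with 0 of 7 probes of the miR-200 family, miR-203 and miR-205 detected and the highest, miR-200c, at 12 units. Nor was any of the ciliated and germ cell guides miR-34b, miR-34c and miR-449a (-47.5 to 9.75 units). The star probes of the first 2 hairpins were above the floor, miR-34b* at 1012 ± 55.5 units and miR-34c* at 178 ± 56.1, as seen after their values were known. With a floor from the negative-control spots alone, chosen after seeing the data, 18 of the 54 probes were detected, among them miR-200c, miR-34b and miR-34c. Among kidney and gut miRNAs, miR-192, miR-215, miR-196a and miR-196b read from -45.2 to -6.25 units and miR-194 alone was detected, at 62.2 ± 15.9.

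**Figure D3:**
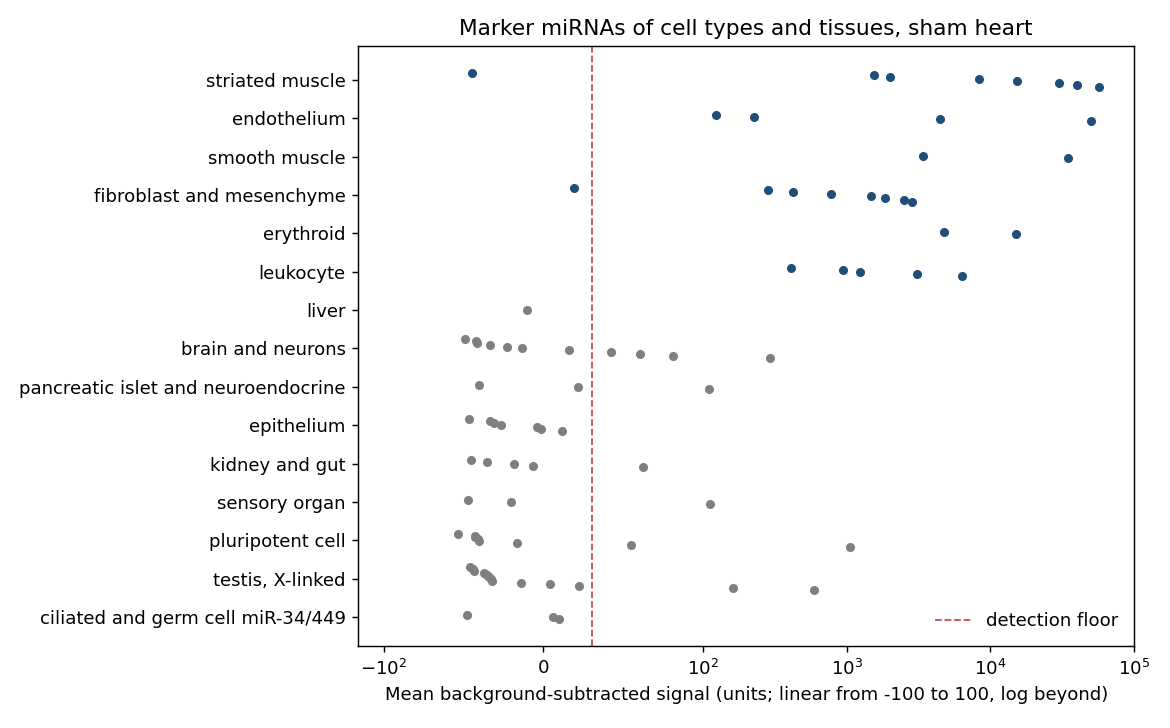
Mean background-subtracted signal of each marker miRNA on the sham array, by list, blue for cell types of the heart and blood and grey for other tissues, with the detection floor dashed; the axis is linear near 0 and logarithmic beyond. Of the blue dots 27 of 29 lie right of the floor, and of the grey dots 11 of 54. The lists were chosen with earlier results of these data known.

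Of 11 brain miRNAs 4 were above the floor (36.4%, near the 34.8% of all probes): miR-9 (292 ± 55.6 units), miR-124 (81.2 ± 18.7), miR-9* (60.8 ± 21.8) and miR-218 (42.5 ± 32.5). MiR-218 lies in the Slit genes, and its spots ran from 10 to 81 units across the floor. The neuronal miR-128 (16 units), miR-137 (-41.5), miR-129 (-33.2), miR-132 (-42.2), miR-212 (-13.2), miR-153 (-49) and miR-219-5p, of oligodendrocytes (-22.8), were not detected. The islet miRNA miR-375 read 22 units and miR-7b -40, while miR-7a read 110 ± 21.2. Of the sensory organ cluster miR-183 read 111 ± 40.3 units, and miR-96 (-47.2) and miR-182 (-20.5) were not above the floor.

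Some probes for miRNAs of other tissues were detected while most members of their lists were not. In the embryonic stem cell cluster of miR-290 to miR-295, the probe for miR-294 read 1048 ± 22.2 units (spots 1063, 1020, 1042 and 1069) and stood at rank 81. The only other detected probe of the 8 on its list was miR-291a-5p at 54.8 ± 14.5 units, and miR-290, miR-291a-3p, miR-292-3p, miR-292-5p, miR-293 and miR-295 read from -53.5 to -16.8 units. Among 13 X-linked testis miRNAs, miR-743b (595 ± 62.0 units) and miR-742 (161 ± 32.7) were detected. The other 11 read from -45.8 to 22.5 units. In the cluster of Mir743b, Mir742 and Mir883, 3 of 6 matched probes were above the floor, the brightest being miR-883* at 1134 ± 143 units. As a star strand, miR-883* is not on the list. Outside the lists, miR-207 (5248 ± 1675 units, rank 31) and miR-325-3p (3354 ± 692, rank 42) were bright. They are on no tissue list and were named here after their values were seen.

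Grouped by seed, the signal was concentrated in a few families. RefSeq gave a mature sequence for 474 of the 678 probes and 193 of the 236 detected ones, which held 94.1% of the summed signal. For names without an arm, the arm was the one generally known as the guide. These fell into 399 seeds, and the 8 largest families held 54.8%. A detected member was in 154 of the 399. Only 46 seeds had more than 1 probe, so the 154 mostly restate the detection of single probes. The miR-133 seed held 9.21%, 40145 units from miR-133b and 30006 from miR-133a. The seed of miR-22 held 8.56% from 1 probe, which is a lower bound, so these 2 were not ordered. The miR-30 seed held 7.95% over miR-30c, miR-30e and miR-30a, and with miR-30b-5p and miR-30d (4586 ± 305 units) added by name the 5 miR-30 guides held 11.2%. That is above the 9.21% of the miR-133 seed, so the order of families and the 54.8% depend on which probes had a sequence.

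The families of the myosin-encoded miR-208 and miR-208b-3p (7.74%), of miR-126 (6.61%), of miR-23b and miR-23a (6.01%) and of miR-143 (4.51%) came after these. The signal of miR-208 is a lower bound as well, so the order of its family and the miR-30 seed was not resolved. The miR-29 family, which represses collagen and other matrix genes, held 4.22%. In it miR-29a (14330 ± 6851 units) and miR-29b (13108 ± 2655) overlapped, and miR-29c read 4710 ± 45.9. The let-7 family, next in order, spread its 3.99% over 8 detected members, from let-7b at 6415 ± 2139 units to let-7c at 1325 ± 1082, and its brightest member held 21.1% of the family, against 96.6% for miR-208 in its own.

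**Figure D4:**
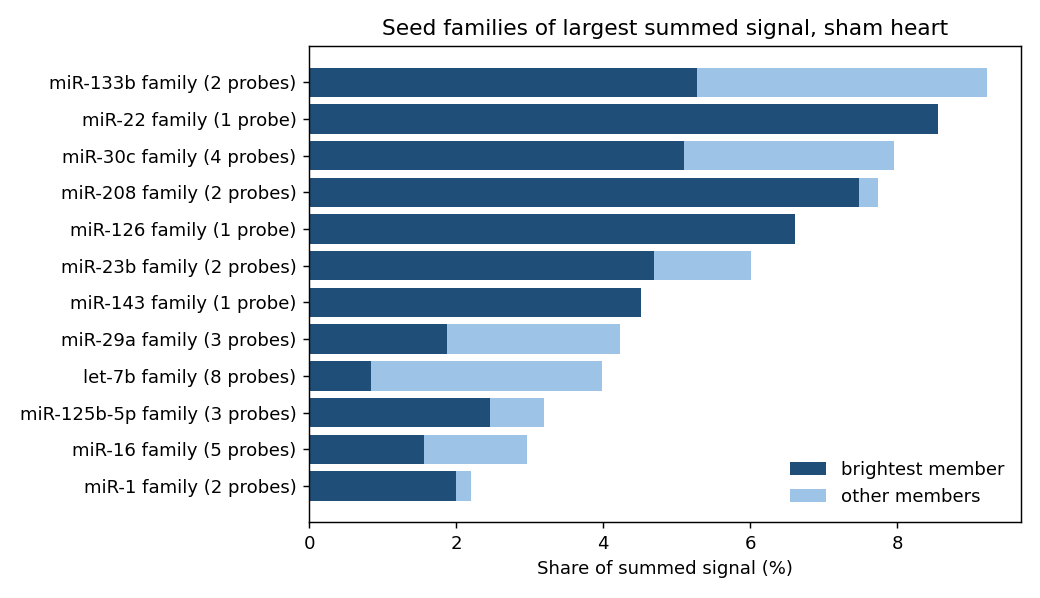
Share of the summed signal (percent) of the 12 seed families of largest signal on the sham array, dark for the brightest member and light for the others, among probes with a RefSeq sequence (miR-30b-5p and miR-30d are not in the miR-30c bar). The miR-133b bar reaches 9.21%, and the let-7b bar of 8 probes reaches 3.99%.

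Neighbours in the genome read unequally. Hairpins within 10 kb of each other were taken as a cluster, and 49 of 56 such clusters with a matched probe held a detected miRNA. Over all matched probes 193 of 474 were above the floor. Most clusters held several probes, and some miRNAs count in more than 1 cluster, so the 49 are not a result about clusters. Mir22 was paired with Mir6326 within 348 bases of chromosome 10 (66214 units, a lower bound), and the 2 matched probes were miR-22 and miR-22* (1073 ± 82.3 units). The cluster on chromosome 17 from 1818648 to 1819482, within the gene Aopep, read 35763 units for miR-23b, 16650 for miR-24, 6290 for miR-27b and 2076 ± 59.6 for miR-24-1*, whereas miR-23b*, miR-27b* and miR-3074 were not above the floor. MiR-24 is also made from a chromosome 19 cluster, and the probe cannot tell the sources apart. The chromosome 17 cluster summed to 60779 units with miR-24 and to 44130 without it. The pair of Mir208a and Mir3546, which overlap on opposite strands, summed to 58316 units, a lower bound, and in it miR-3546 read -55.2 units. The order of these clusters was thus not resolved.

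The clusters of the muscle miRNAs showed the same unevenness. On chromosome 18 from 2157853 to 2160426, within Mib1, miR-133a read 30006 units, miR-1 15260, miR-133a* 4696 ± 172 and miR-1* -42.8. MiR-3571, whose hairpin lies opposite that of miR-1, read 642 ± 78.7 units. On chromosome 9 from 30590697 to 30594665, miR-133b read 40145 units, miR-206 1560 and miR-133b* -46. In the pair of Mir30c1 and Mir30e within Nfyc on chromosome 5, miR-30c read 38840 units, miR-30e 12368 and miR-30c-1* 109. A second locus also makes miR-30c.

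In the 9 clusters of at least 5 hairpins, 30 of 99 distinct matched probes were above the floor (30.3%). Over all matched probes 193 of 474 were above it, a higher share than the 34.8% of all probes. The share also differed between clusters. The examples below were picked after their values were seen. In the main block of the imprinted Dlk1-Dio3 region on chromosome 6, a set of 38 hairpins from 134543445 to 134579838, 8 of 25 matched probes were above the floor, led by miR-667 (948 units), miR-134* (770) and miR-300-5p (658). A second block there, of 11 hairpins, had 2 of 7 detected, miR-433* (1055 units) and miR-127 (54.5). The X-linked testis cluster of 10 hairpins, from 150462896, had 1 of 18 detected. The hairpins Mir743b, Mir742 and Mir883 end at 150452038, beyond the 10 kb limit, and so formed a separate cluster outside these 9. It had 3 of 6 detected, led by miR-883* (1134 units). Another X-linked cluster, of 6 hairpins from 137720933 to 137726241, had 6 of 10 detected, led by miR-322 (1912 units), miR-503 (688) and miR-351 (622). The let-7 cluster of chromosome 17 had 5 of 7 detected, with let-7d at 5485 units, let-7a at 2830 and let-7f at 1521. Let-7a is also encoded in a chromosome 8 cluster and let-7f in an X-linked one, and the probes cannot tell the sources apart. In the growth-promoting miR-17/92 cluster on chromosome 15, miR-19b (1778 ± 137 units), miR-20a (802 ± 74.6), miR-19a (501 ± 26.7) and miR-17-5p (396 ± 14.6) were detected, and miR-18a (-29.5) and miR-92a (-32.2) were not. MiR-19b and miR-17-5p are also encoded in an X-linked cluster.

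Star strands held little of the signal. Of 242 star probes 69 were above the floor (28.5%), against 167 of 436 other probes (38.3%), and they gave 5.29% of the summed signal. Both strands were above the floor in 45 of 238 pairs, the guide alone in 85 and the star alone in 22. In 39 of the 45 the guide was brighter, by a median of 9.56-fold over the 45 pairs. The brightest stars were miR-133a* (4696 units), miR-126* (4451), miR-30e* (4124 ± 673), miR-499* (2954 ± 197), miR-24-1* (2076), miR-24-2* (1741 ± 117), miR-208* (1363 ± 120), miR-138-2* (1229 ± 59.9), miR-883* (1134 ± 143) and miR-22* (1073).

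Some hairpins gave more signal from the star probe. Both above the floor, miR-872* read 1014 ± 87.4 units and miR-872 82 ± 26.7, miR-32* 884 ± 54.0 and miR-32 569 ± 29.7, miR-183* 281 ± 26.8 and miR-183 111 ± 40.3, and miR-466c* 266 ± 106 and miR-466c 92.8 ± 18.5. In these 4 the star spots lay wholly above the guide spots. For miR-140* (979 ± 47.3 units) and miR-140 (864 ± 59.0), a cartilage miRNA, the spots overlapped, as they did for miR-423* (220 ± 117) and miR-423 (214 ± 138). Beside the bright stars miR-138-2* and miR-883* the guides read 18 and -44 units, neither above the floor.

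**Figure D5:**
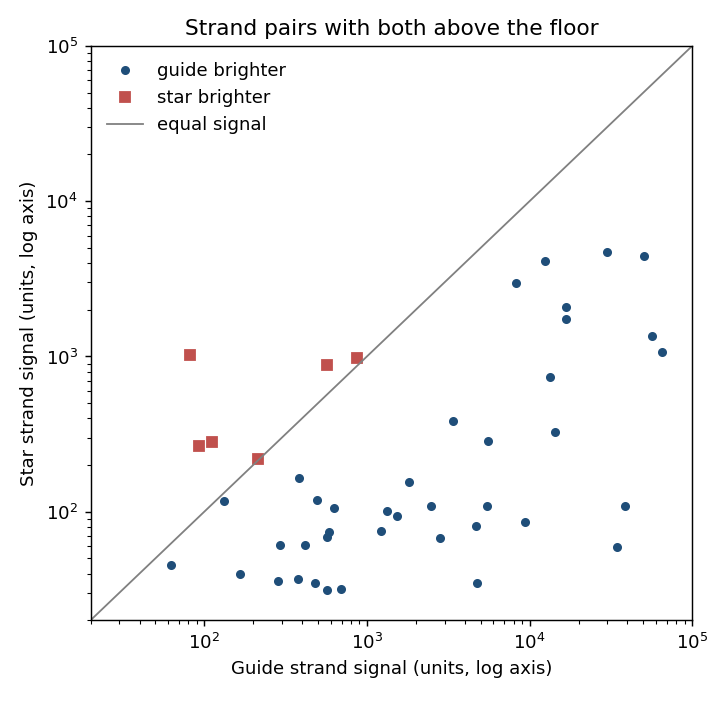
Star strand signal against guide strand signal (units, both log axes) for the 45 pairs with both above the floor on the sham array; the line marks equal signal. Circles below the line are the 39 pairs with the brighter guide, and squares above it the 6 with the brighter star.

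Sequence composition differed little with detection. The median length was 22 bases for detected and undetected miRNAs alike. The median G+C share was 45.5% over 193 detected miRNAs, 47.8% over 281 undetected and 44.5% over the 30 brightest with a sequence. Across the 193 detected miRNAs G+C share and log2 signal gave Pearson's r of -0.25 and Spearman's rho of -0.27, as a description of probes that share 1 array, 1 labelling and related sequences.

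The floor itself cut through a continuum. Just above it lay miR-144* (34.5 units), miR-760-5p (34.2), miR-3568 (33.5), miR-503* (32) and miR-338* (31.5), and just below it miR-181a-1* (30.5), miR-7a-2* (30.2), miR-434 (28.2), miR-2985 (27.2) and miR-542-5p (27). The largest spread between spots among detected miRNAs was that of miR-137*, with spots of -30, -24, 1570 and -24 units, so that 1 spot alone put it above the floor. MiR-31*, miR-3585-5p, miR-139-5p and miR-323 followed, with spot SDs of 168%, 104%, 104% and 86.6% of their means. The median over all detected miRNAs was 17.0%.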

How the data were processed

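In the deposited raw file the authors list 2 intensity values for every spot, foreground and foreground minus background, per the file headers. No scaling between arrays was applied to them. The scanner model and image software were not found in the labels or headers. Per the labels' protocols, total RNA was labelled with Hy3 at the 3′ end. The authors' processed table, judged from its values, gives a ratio for each probe, its median signal over 1 number fixed for the array, and served only as an alternative. The raw sham column was the only one besides the 4 columns named for TAC days, and the processed sham values were proportional to its probe medians.

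The deposited background-subtracted intensity was averaged over 4 spots per probe. Shares counted probes at or below 0 as 0. The floor was the median plus 3 MADs, scaled by 1.4826, of empty and negative-control spots. Normexp (offset 50) was an alternative, with limma 3.58.1 in R 4.3.3. Shares and floor were tested on simulated data, with Python 3.11.15. In the simulation absent probes and controls shared the same distribution. The real negative-control and empty spots had medians of -43.5 and -4, so it checks the calculation and not the choice of floor. Seeds were read from RefSeq sequences. Since 1 array was used, no test was made. No TAC array was compared.

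MiRNAs were named by rule: the 30 brightest, marker list members, members of the 8 largest seed families and 6 largest clusters, the 10 brightest stars and stars brighter than their guides, 5 on each side of the floor and the 5 of largest spot spread. Members and lists were chosen with earlier results of these data known. Listed miRNAs without a probe here were miR-486, miR-155 and miR-302a to miR-302d.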

Additional observations from a re-analysis of the deposited data

Results flagged for a closer look

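Probes outside the rat miRNA set also gave signal on the sham array. Of 1901 probes without a name, 435 were above the floor of 30.6 units (22.9%), the brightest at 65429 units. Of 23 probes for other small RNAs, 12 were above it, led by SNORD65 (12586 units), 5S rRNA (8197) and the probe shared by RNU6-1 and RNU6-2 (5908). They were flagged as signal in data that no comparison above uses, measured against the floor, since no control array exists.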

How the results depend on the processing

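The 10, 20 and 50 brightest miRNAs held 47.8%, 64.2% and 81.9% of the signal with no background subtraction and 47.0%, 63.1% and 80.6% with normexp. In blocks 1 to 18 the 10 and 20 brightest held 53.9% and 70.0%, and in blocks 19 to 36 they held 49.7% and 68.2%. The striated muscle list held 18.9% with no subtraction and 18.6% with normexp. Both of these choices add a positive amount to each probe, dim ones included. MiR-22 read highest under all 8 alternatives for signal, and 28 to 30 of the first 30 were shared. Since spots of miR-22 and miR-208 were at the ceiling, the alternatives cannot settle the order of these miRNAs. The count above the floor ran from 217 (all 4 spots above) to 258 (unscaled MADs). In an alternative chosen after seeing the data, a floor from the 28 negative-control spots alone (0.978 units; these spots had a median of -43.5, the 1108 empty spots of -4) put 288 miRNAs above it, 28 of 29 from the lists of heart and blood cells and 18 in place of 11 from the lists of other tissues. How many markers of other tissues count as detected thus depends on the controls taken. Values near the floor are limited by its definition, and those near the ceiling are lower bounds. No paired analysis was possible because only the sham array was used.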
